A study of Mus musculus with 216 samples.

Results

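The daily rhythm of gene expression was described in the heart of young mice, from the 12 heart libraries of 6-month-old animals that were taken at circadian times (CT) 18 to 62, every 4 h. These are 12 of the 216 libraries of a study of 6 tissues at 3 ages, and they were taken by the tissue, age and time on their labels. Per the labels the mice were males of the C57B6/J-NIA strain, no genotype or agent is given, and each library holds RNA of 2 samples that were pooled, so every time point is 1 pool and each clock time recurs in 2 libraries a day apart. The other groups used were aged heart (18 months) and old heart (27 months), and young kidney and young skeletal muscle (6 months), with 12 libraries each at the same circadian times. The labels do not state how the mice were lit and fed, or whether the tissues of a time point came from the same mice.

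The circadian clock of mammalian cells is a feedback loop of transcription. BMAL1 (gene Arntl) pairs with CLOCK or NPAS2 and switches on genes through the E-box, among them the Period and Cryptochrome repressors, which then shut their own activators off. REV-ERB repressors and ROR activators compete for another DNA element and time Arntl, and the PAR bZIP activators DBP, TEF and HLF share the D-box element with the repressor NFIL3. In the heart this loop is known to time metabolism, ion channels and the size of the response to stress. Circadian time 0 to 12 is the subjective day, in which mice rest, and circadian time 12 to 24 the subjective night, in which they are active.

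The 12 libraries held 9438150 to 13766042 counts, with 10648904 to 13766042 in the 6 day libraries and 9438150 to 12450810 in the 6 night libraries. The markers of the named tissue were present throughout: 7 cardiomyocyte genes summed to 42482 to 47904 CPM (counts scaled to a common library total), and none of the 7 passed the rhythm test. Of the lung epithelium markers, Sftpa1, Sftpb and Scgb1a1 were at 0 in all 12 libraries and the sum of the list stayed at or below 0.654 CPM. Kidney tubule markers summed to 4.56 CPM in the library of CT 22, and to at most 0.789 CPM in each of the other libraries. The libraries of CT 22 and CT 58 lay farthest from the fitted rhythms, with a median residual of 0.14 on the log2 scale in each against 0.066 to 0.11 in the other 10. The library of CT 58 also had the lowest share of counts on ribosomal protein genes (1.55%, against 1.87% to 2.69% elsewhere), and what part these differences have in the results was not tested.

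A 24 h rhythm was found in 1640 of 14805 genes tested (11.1%), by edgeR's quasi-likelihood test of a cosine and sine of the young heart, with the spread shared over the 36 heart libraries of all ages and an adjusted p under 0.05. The fullest span of 2 h was the end of the subjective day: 362 rhythmic genes peaked between CT 10 and 12, which is 22.1% of them against 13.8% of all genes tested. The shares at CT 8 to 10 (12.7% against 12.3% of all tested), CT 22 to 24 (12.1% against 11.04%) and CT 0 to 2 (10% against 8.19%) lay near those of all genes, and 42 rhythmic genes peaked at CT 4 to 6 (2.56% against 6.403%). In all, 954 genes (6.44% of those tested) peaked in the subjective day and 686 (4.63%) in the night. The day held 58.2% of the rhythmic genes and 55.5% of the fitted peaks of all genes tested, so the balance of day and night differed little between them. Most rhythms were shallow. The median amplitude, the log2 distance from the middle to the peak of the cosine, was 0.30 among rhythmic genes and 0.15 among all tested, 282 rhythmic genes reached 0.5, and 32 reached 1, a 4-fold change from trough to peak. The count of rhythmic genes rested on single libraries: it was 947 without the library of CT 58, 1089 without CT 62 and 2344 without CT 22, and 1051 without both CT 22 and CT 58. Without CT 58 the day held 49.8% of the rhythmic genes.

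**Figure D1:**
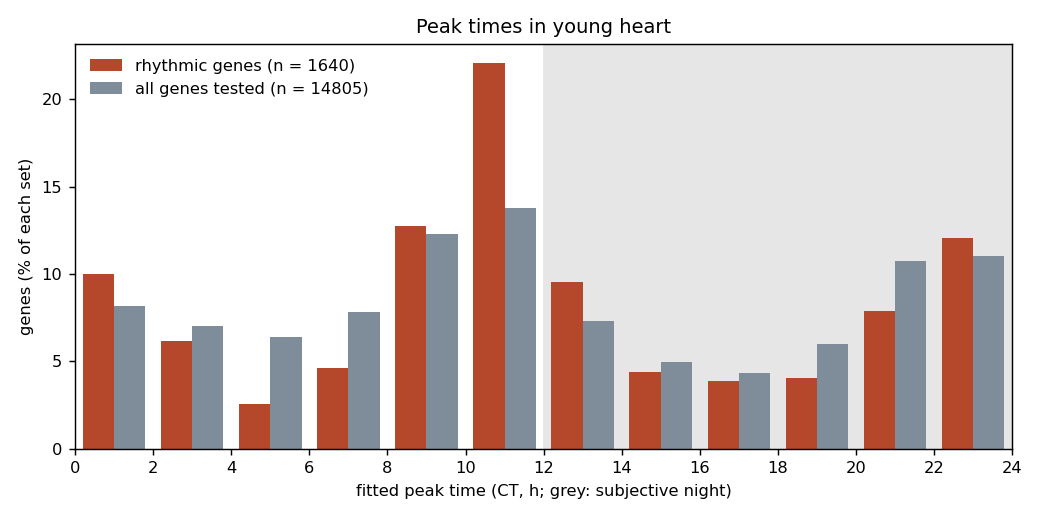
Fitted peak times in young heart in 2 h bins: bars give the percentage of the 1640 rhythmic genes (red) and of all 14805 genes tested (grey) that peak in each bin, and grey shading marks subjective night. The tallest red bar, at CT 10 to 12, holds 362 genes, and the lowest, at CT 4 to 6, holds 42.

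Of 20 genes on the clock lists 19 passed the test, against 11.1% of all genes, with a median amplitude of 1.06 among those 19; Rorb, at a mean of 1.15 CPM, did not pass (adjusted p = 0.335). Their peaks ran in the order of the loop: activators at CT 0.34 to 1.66, Nr1d1 at CT 7.64, most repressors and PAR bZIP factors at CT 10.8 to 13.6, and Cry1 and Nfil3 at CT 18.4 and 21.9. Amplitudes and peaks below carry the standard error of the least-squares fit to the 12 libraries.

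Arntl, the activator at the centre of the loop (chr7:113207465-113314126, plus strand, GRCm38), was high around dawn. It read 36.4 CPM at CT 26 and 37.2 at CT 50, and 2.27 CPM at CT 34 and 1.96 at CT 58, with a median of 11.4 CPM over the 12 libraries. All 4 libraries of clock times 22 and 2 were above all 8 of the other clock times. The fitted amplitude was 2.24 ± 0.17 (SE), which is a 22.4-fold change from trough to peak, with a peak at CT 0.34 ± 0.29 h (edgeR adjusted p = 9.4e-10). Its partner Npas2 ran from 1.66 CPM to a median of 3.95 and a highest of 11.2 CPM, with an amplitude of 1.17 ± 0.16 and a peak at CT 1.12. Clock itself moved far less, between 33.5 and 70.5 CPM (median 50.01), with an amplitude of 0.45 ± 0.06 and a peak at CT 1.66.

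The repressors followed in the later day. Per1, which responds fastest of the Period genes to outside signals, ran from 14.1 CPM at CT 50 to 104 CPM at CT 58 (median 29.99 CPM), with a peak at CT 10.9 ± 0.53 h and an amplitude of 1.19 ± 0.16. Per3 ran from 8.05 to 75.9 CPM (median 26.01) with a peak at CT 12.1, and Per2 from 1.97 to 47.2 CPM (median 15.2) with a peak at CT 13.6 ± 0.47 h. Per2 had the largest fitted amplitude of the Period genes, 1.85 ± 0.23. Ciart, which codes for the repressor CHRONO, was at most 18.0 CPM in 10 libraries and read 35.0 CPM at CT 34 and 38.3 at CT 58. Its amplitude was 1.67 ± 0.23 with a peak at CT 10.8. The Cryptochromes split: Cry2 peaked at CT 12.2 ± 0.40 h and Cry1 at CT 18.4 ± 0.70 h. Cry1, the late repressor of the loop, was between 20.6 and 26.5 CPM in the 6 night libraries and between 8.23 and 19.6 CPM in the 6 day libraries, so its day and night values did not overlap. The edgeR test of day against night means, described below, did not call it (adjusted p = 0.0998).

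The REV-ERB repressors that time Arntl peaked in the day. Nr1d1, which codes for REV-ERB alpha, was between 60.4 and 170 CPM in the day and between 16.8 and 55.9 CPM in the night, with no overlap, an amplitude of 1.61 ± 0.08 and a peak at CT 7.64 ± 0.20 h. The edgeR test of day against night means did not call Nr1d1 either (adjusted p = 0.142). Nr1d2 (REV-ERB beta) peaked at CT 10.7, with an amplitude of 1.06 ± 0.07. Its values ran from 46.99 CPM at CT 46 to a median of 107 and a highest of 220 CPM at CT 58. Rora, an activator at the same element, reached an amplitude of only 0.20 ± 0.05. The call of Rora was lost in the 12 young libraries alone (edgeR adjusted p = 0.0610) and without both CT 22 and CT 58 (0.0524). It was also lost with the 6 clock times as a factor (0.255).

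Dbp, a direct target of the activators (chr7:45705088-45710203, plus strand), rose from 19.5 CPM at CT 26 to 334 CPM at CT 34 (median 87.5 CPM), and from 24.5 CPM at CT 50 to 292 CPM at CT 58. Both cycles thus had their highest library at clock time 10, and the fit gave an amplitude of 2.08 ± 0.13, a 17.9-fold change, with a peak at CT 10.9 ± 0.23 h (edgeR adjusted p = 2.6e-11). Its relatives Tef and Hlf peaked at CT 12.5 and 12.7 with amplitudes of 0.82 ± 0.06 and 0.98 ± 0.09. Nfil3, the repressor that competes with them, peaked at CT 21.9 ± 0.43 h and was lowest at clock time 10, at 9.25 and 7.84 CPM. The DEC repressors Bhlhe40 and Bhlhe41 peaked at CT 9.32 and 10.9. Reads of Dbp, Nr1d1, Arntl, Cry2, Rora, Tef, Bhlhe40 and Bhlhe41 cannot be told apart from those of genes annotated on the opposite strand over their exons (Sphk2 for Dbp and Thra for Nr1d1), because whether the counting used strand is not stated in the labels or processing notes.

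**Figure D2:**
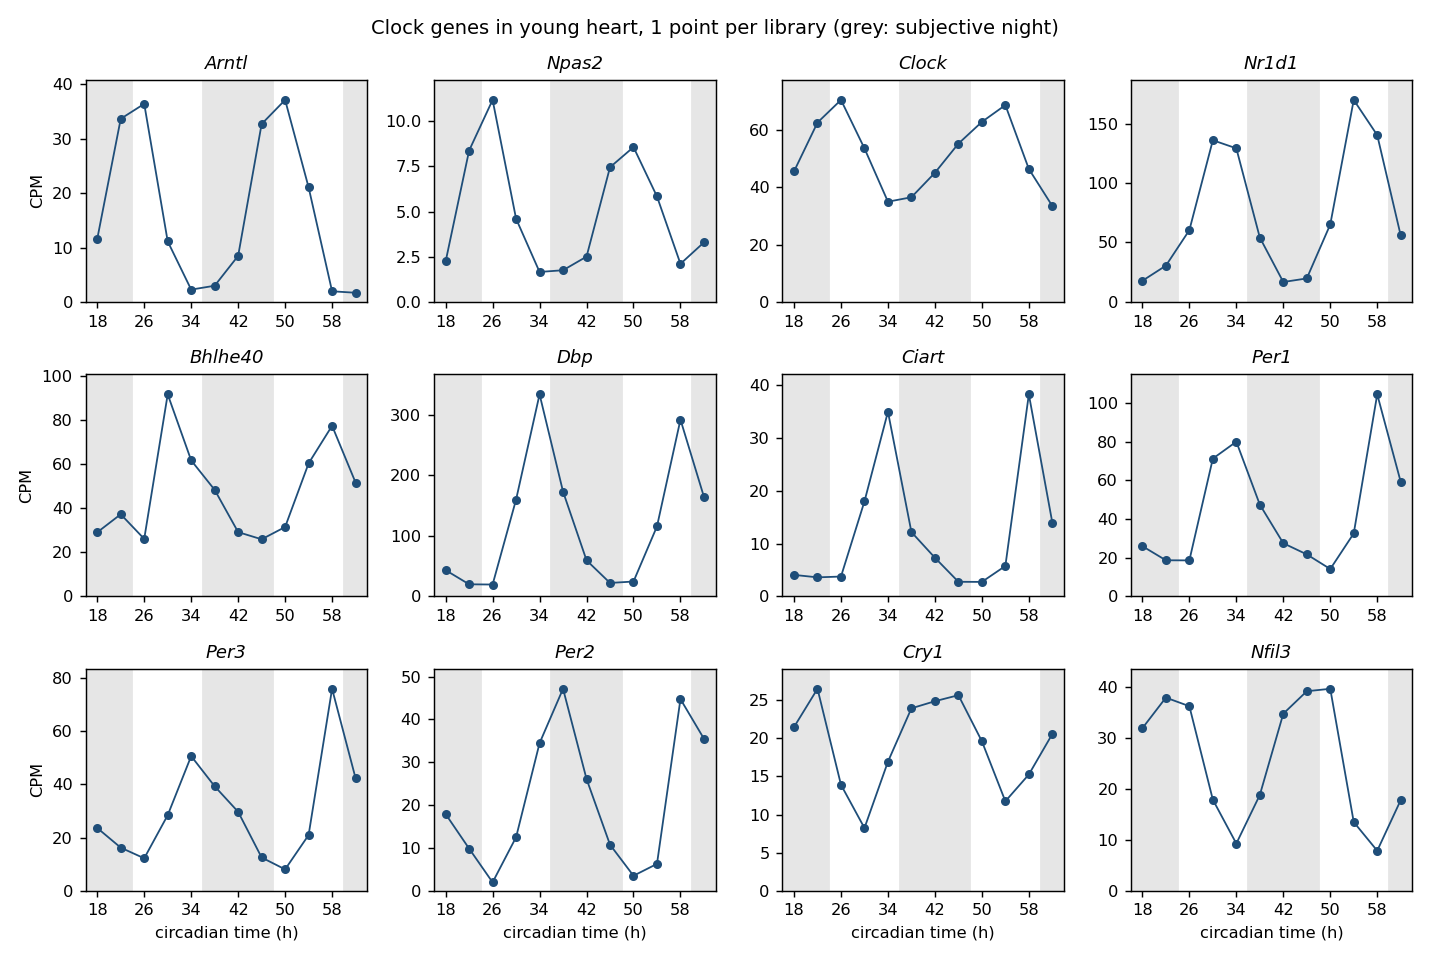
Level (CPM, linear scale) of 12 clock genes in each young heart library against circadian time in hours, 1 point per library, with subjective night in grey. Arntl and Dbp show 2 cycles each, with highest values of 37.2 CPM at CT 50 and 334 CPM at CT 34.

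Promoters of 4 clock genes and of Klf15, which is on the ion channel list, are shown because they hold a match to 1 of the 3 clock elements, and they were picked for it. Of the 17 clock genes with a listed promoter 5 held an E-box, 1 a D-box and 2 the receptor element. The sequences are RefSeq's, the 250 bases before a listed start of the gene, 5′ to 3′ on the strand of the gene, with matches in capitals: the E-box is CACGTG, the D-box TTATGTAA or TTACGTAA, and the REV-ERB and ROR element ANTAGGTCA or ANTGGGTCA, each searched on both strands. The windows lie at chr3:95882229-95882478 (minus strand) for Ciart, chr11:69098699-69098948 (plus) for Per1, chr4:151044666-151044915 (minus) for Per3, chr13:52981040-52981289 (minus) for Nfil3 and chr6:90462326-90462575 (plus) for Klf15, on GRCm38.p6.
Ciart: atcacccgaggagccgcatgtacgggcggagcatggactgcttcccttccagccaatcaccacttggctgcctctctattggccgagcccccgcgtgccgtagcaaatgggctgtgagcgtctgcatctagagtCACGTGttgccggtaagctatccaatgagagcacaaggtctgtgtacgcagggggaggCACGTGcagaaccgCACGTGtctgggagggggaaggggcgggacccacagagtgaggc
Per1: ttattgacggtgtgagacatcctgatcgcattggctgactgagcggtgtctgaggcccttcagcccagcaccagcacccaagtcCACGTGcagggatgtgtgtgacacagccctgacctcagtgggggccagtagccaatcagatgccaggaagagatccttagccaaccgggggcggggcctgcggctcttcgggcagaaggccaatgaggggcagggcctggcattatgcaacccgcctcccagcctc
Per3: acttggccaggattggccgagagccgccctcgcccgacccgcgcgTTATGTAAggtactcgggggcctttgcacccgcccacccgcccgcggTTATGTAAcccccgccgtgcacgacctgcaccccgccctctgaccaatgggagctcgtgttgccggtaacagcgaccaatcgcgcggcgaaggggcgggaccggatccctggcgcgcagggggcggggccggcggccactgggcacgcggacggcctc
Nfil3: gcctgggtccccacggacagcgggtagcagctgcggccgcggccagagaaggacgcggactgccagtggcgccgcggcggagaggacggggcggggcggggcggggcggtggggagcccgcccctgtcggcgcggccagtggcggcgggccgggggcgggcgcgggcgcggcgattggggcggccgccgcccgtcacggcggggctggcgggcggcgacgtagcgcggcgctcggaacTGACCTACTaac
Klf15: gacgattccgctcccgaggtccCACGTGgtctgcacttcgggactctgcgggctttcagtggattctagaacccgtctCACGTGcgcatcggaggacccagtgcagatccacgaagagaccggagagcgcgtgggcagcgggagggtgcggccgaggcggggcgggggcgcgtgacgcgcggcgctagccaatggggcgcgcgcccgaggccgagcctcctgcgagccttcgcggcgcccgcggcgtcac

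Ciart, with a peak at CT 10.8, held 3 E-boxes, which start 116, 58 and 44 bases before the start site, and Per1 held 1, at 166 bases, in the first of its 2 listed promoters. This window of Per1 lies inside the gene as GENCODE places it, from chr11:69095217. Per3, which peaked at CT 12.1, held 2 D-boxes, at 205 and 158 bases. Nfil3, which peaked at CT 21.9, held 1 match to the receptor element, on the opposite strand, 12 bases before the start. Klf15, described with the ion channels below, held 2 E-boxes. In the windows of 300 bases, which also take in the 50 bases after the start, an E-box was present in 1248 of the 10796 tested genes with a listed promoter (11.6%), a D-box in 97 (0.898%) and the receptor element in 131 (1.21%). Among rhythmic genes with a peak at CT 6 to 12 the E-box was present in 85 of 493 (17.2%), and in those of the other 3 windows of 6 h in 8.42% to 10.9%. A D-box was present in few rhythmic genes: 6 of 229 (2.62%) with a peak at CT 12 to 18 and 7 of 297 (2.36%) at CT 18 to 24. At CT 0 to 6 it was in 1 of 234 (0.427%) and at CT 6 to 12 in 5 of 493 (1.014%). The receptor element was in 5 of the 234 (2.14%), 3 of the 493 (0.609%), 4 of the 229 (1.75%) and 7 of the 297 (2.36%). A match describes the letters only, and the shares were not tested.

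The 2 cycles of the clock were close in time but not identical. When the 6 libraries of CT 18 to 38 and the 6 of CT 42 to 62 were fitted separately, the 19 rhythmic clock genes peaked a median of 0.617 h later in the second cycle, and 15 of the 19 were later there. Clock was 2.24 h later, Ciart 1.96 h and Per1 1.67 h, whereas Hlf, Nfil3 and Bhlhe41 were earlier by 0.219 to 0.563 h. At clock time 6 Dbp read 160 CPM at CT 30 and 116 CPM at CT 54, and Ciart 18.0 and 5.76 CPM, while Nr1d1 read 136 and 170 CPM and Hlf 22.8 and 27.2 CPM, so single libraries went both ways. Over all 1640 rhythmic genes the median shift was -0.07 h, with 800 later in the second cycle, and none of these shifts was tested. Amplitudes were larger in the second cycle for 1192 of the 1640, with medians of 0.36 against 0.26, and for 9506 of all 14805 genes tested, with medians of 0.21 against 0.14.

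Off the clock lists, the largest rhythms were described in windows of 6 h. In CT 0 to 6 the 6 largest amplitudes among genes of at least 5 CPM were those of Spon2, S100a9, Col5a3, Slc41a3, Cx3cr1 and Clmp. Spon2, which codes for a secreted matrix protein, ran from 1.84 CPM at CT 38 to 33.3 CPM at CT 50 (median 7.88), with an amplitude of 1.68 ± 0.18 and a peak at CT 1.55. Col5a3, a collagen chain, ran from 8.19 to 52.9 CPM (median 23.7) with an amplitude of 1.05 ± 0.13, and Slc41a3, a magnesium transporter, from 24.3 to 113 CPM (median 65.8) with 0.99 ± 0.11. Cx3cr1, the fractalkine receptor of macrophages and monocytes, had an amplitude of 0.98 ± 0.15. S100a9, a neutrophil gene, was below 2 CPM in 11 libraries and read 52.6 CPM at CT 30, and without that library its adjusted p was 0.891. Macrophage markers summed to 376 CPM in the same library and to at most 231 CPM in the others, and their part in the values of S100a9 and Cx3cr1 was not tested.

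In CT 6 to 12 Klhl38, Nr4a1, Nckap5, Cdkl1 and Dixdc1 were among the 6 largest amplitudes, all under 1. Klhl38, a muscle gene that is also on the list of autophagy and atrophy, ran from 12.9 to 53.97 CPM (median 23.1; amplitude 0.94 ± 0.15, peak at CT 10.6). Nckap5 ran from 2.60 CPM at CT 42 to 11.8 CPM at CT 58 (median 4.89; amplitude 0.73 ± 0.15, peak at CT 8.83). Nr4a1, an immediate early gene, was at most 20.8 CPM in 11 libraries and 109 CPM at CT 30, and its adjusted p without that library was 0.488. The call of Dixdc1 was lost without any of the libraries of CT 18, 42, 54 and 58, with the highest adjusted p at 0.0959 without CT 58.

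In CT 12 to 18 the largest amplitudes were those of Angptl7, Zbtb16, Rhobtb1, Fam107a, Mt2 and Arrdc2. Angptl7, which codes for a secreted angiopoietin-like protein, had the largest, 1.49 ± 0.15, with a peak at CT 17.6; its values were between 4.13 and 13.5 CPM in the night and between 0.969 and 3.10 CPM in the day. Zbtb16 and Fam107a, both known to be induced by glucocorticoids, reached 107 and 20.4 CPM at CT 62. Their amplitudes were 1.22 ± 0.19 and 1.04 ± 0.15, with peaks at CT 13.6 and 15.2. Rhobtb1 ran from 38.1 to 226 CPM (median 102), with an amplitude of 1.05 ± 0.12 and a peak at CT 13.6. Mt2, a metallothionein, lost its call without the library of CT 26, 50 or 62, with the highest adjusted p at 0.0791 without CT 62.

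In CT 18 to 24 the largest amplitudes were those of Tmem171, Adam19, Nppb, Grip2, Cdkn1a and Gsta3. Nppb, which codes for the natriuretic peptide BNP, ran from 84.3 CPM at CT 38 to 483 CPM at CT 50 (median 305 CPM), with an amplitude of 0.93 ± 0.23 and a peak at CT 23.5 ± 0.94 h. Its values were between 261 and 483 CPM in the libraries of clock times 18, 22 and 2 and between 84.3 and 153 CPM in those of 10 and 14, while clock time 6 gave 404 CPM at CT 30 and 107 CPM at CT 54. Adam19, a membrane protease, ran from a median of 31.5 to a highest of 57.2 CPM (amplitude 0.95 ± 0.09, peak at CT 23.9), and Cdkn1a, which codes for the cell-cycle inhibitor p21, from 9.43 to 35.7 CPM (0.80 ± 0.12, peak at CT 23.95). Gsta3, a glutathione transferase, was between 23.4 and 33.5 CPM in the night and between 10.8 and 19.5 CPM in the day.

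**Figure D3:**
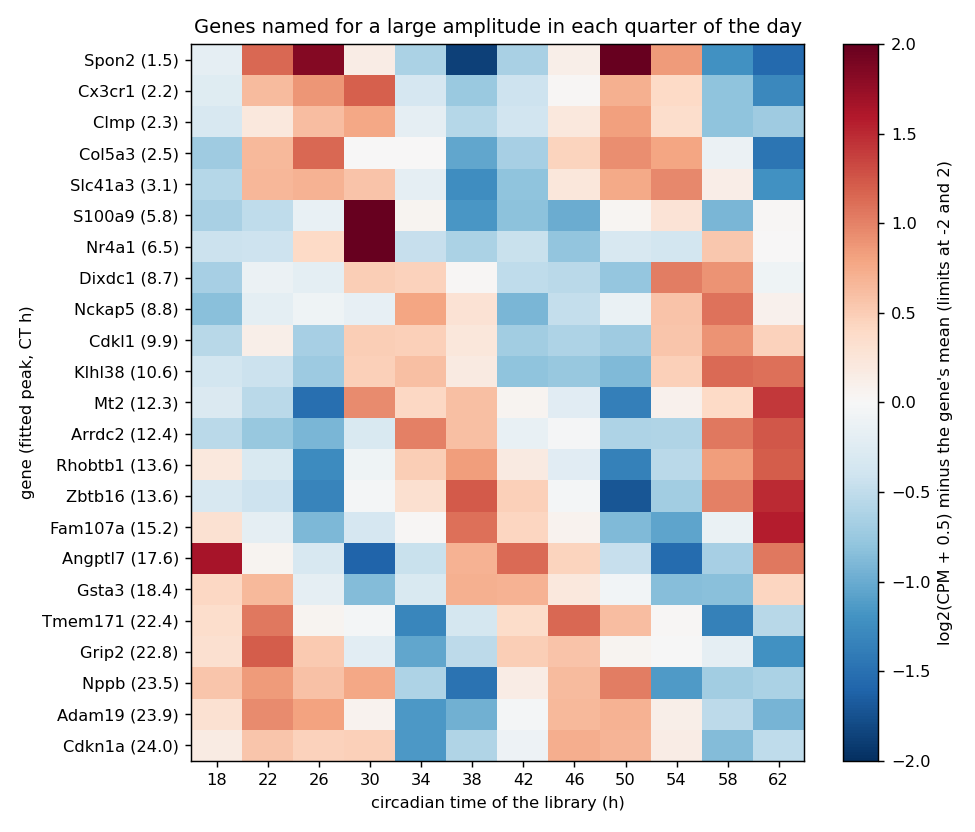
Heat map of the genes named above for a large amplitude in each window of 6 h, ordered by fitted peak (in parentheses, CT in hours), in each young heart library: colour gives log2(CPM + 0.5) minus the mean of the gene. S100a9 and Nr4a1 are dark in the single library of CT 30, at 52.6 and 109 CPM, whereas Spon2 and Arrdc2 repeat in both cycles.

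The functional lists, read against the 11.1% of all genes that were rhythmic and their median amplitude of 0.15, are described by the peaks of their rhythmic members. Members of a list beyond the 4 of smallest p are named after their values were seen. As for the clock genes above, exons of some members overlap genes on the opposite strand, and their reads cannot be told apart. Among these are Dnaja1 (Smu1), Manf (Dcaf1), Ndufs1 (Eef1b2), Hadha (Garem2), Pfkfb1 (Apex2) and Sqstm1 (Mrnip), and not every such gene is marked. Counts under other settings are given where they differ by over 1.5 times: without the filter on low counts, in DESeq2, in the 12 young libraries alone, with a linear trend, or with the 6 clock times as a factor. With clock times as a factor calls were lost for Me1 (edgeR adjusted p = 0.254), Sqstm1 (0.180), Mylk3 (0.146), Rbm3 (0.136) and Srebf2 (0.126). Not all such losses of single members are given. In these bulk samples fewer cells of a type and less RNA per cell cannot be told apart.

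**Figure D4:**
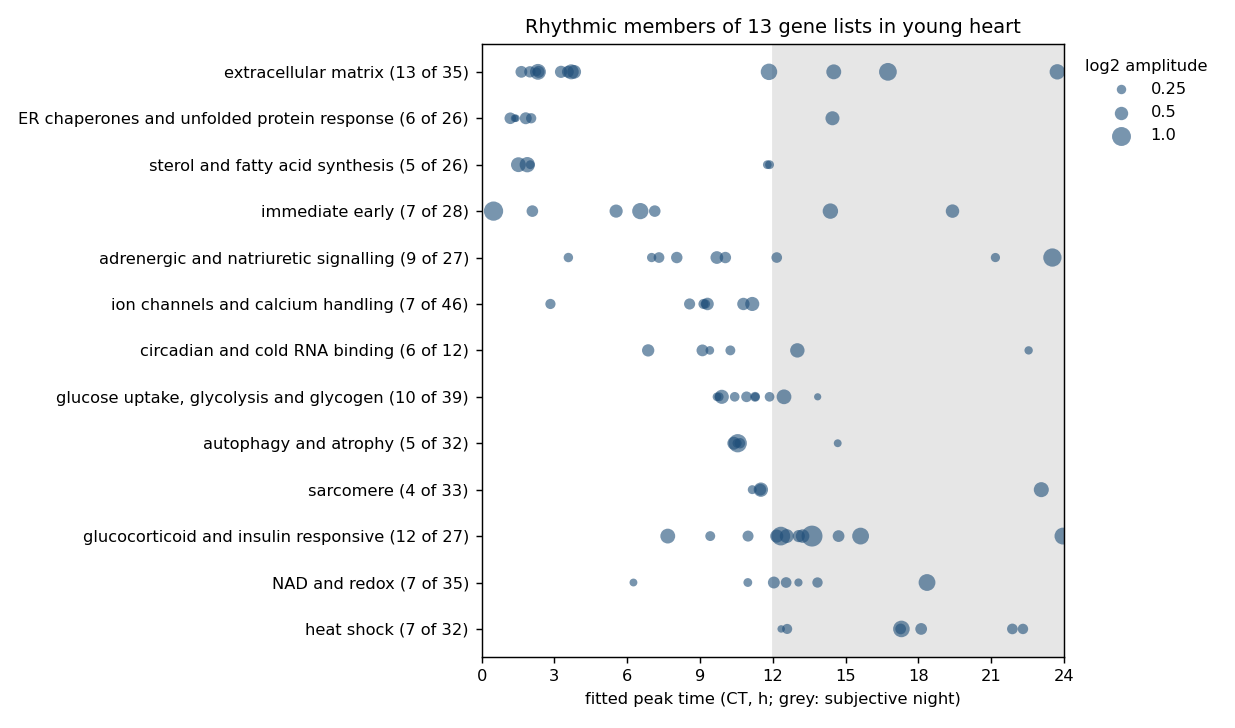
Fitted peak times (CT in hours) of the rhythmic members of 13 gene lists, 1 point per gene with its area set by the log2 amplitude; the counts of rhythmic and tested members follow each name, and grey marks subjective night. Of the 13 rhythmic matrix genes 9 lie at CT 1.6 to 3.8, the 10 of glucose use at CT 9.7 to 13.8, and the 7 of the heat shock list in the night.

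Of 35 extracellular matrix genes tested 13 were rhythmic (20 without the filter), 10 with a day and 3 with a night peak, and the median amplitude of all 35 was 0.22. Of the day members 9 had peaks between CT 1.6 and 3.8, among them Mmp14, Fbn1, Col3a1, Col4a1, Col4a2, Col6a3, Col15a1 and Loxl1. Mmp14, a membrane protease that opens the matrix, ran from 10.9 CPM at CT 62 to 33.9 CPM at CT 26 (median 20.9), with an amplitude of 0.70 ± 0.07 and a peak at CT 2.32. Fbn1, the microfibril protein fibrillin, ran from 39.4 to 109 CPM (median 66.8; amplitude 0.63 ± 0.07, peak at CT 3.69), and Eln, which codes for elastin, from 25.3 to 78.2 CPM with a peak at CT 23.7. Among inhibitors of matrix proteases Timp3, which shares exons with Syn3 on the opposite strand, ran from 163 to 452 CPM (median 289) with a peak at CT 14.5 and an amplitude of 0.62 ± 0.08, and Timp4 peaked at CT 16.7 with 0.88 ± 0.21. Of 5 endothelial markers 4 were rhythmic, 3 with a peak at CT 18 to 24 and 1 at CT 0 to 6, with a sum of 1117 to 1187 CPM at clock time 2 and 682 to 757 CPM at clock time 14. Fibroblast markers, 1 of 5 rhythmic, summed to between 698 CPM at CT 58 and 1114 CPM at CT 26, and smooth muscle and pericyte markers to between 610 CPM at CT 30 and 1016 CPM at CT 26. Erythroid markers, 0 of 5 rhythmic, summed to 1552 and 2089 CPM at clock time 2 and to 985 and 729 CPM at clock time 10. The part of these cell types in the matrix rhythm was not tested. The count of rhythmic matrix genes was lowest, at 8, without the library of CT 62.

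Of 26 genes of endoplasmic reticulum chaperones and the unfolded protein response 6 were rhythmic (median amplitude of the 26, 0.15), and 5 of the 6 peaked between CT 1.18 and 2.04: Sdf2l1, Xbp1, Pdia4, Manf and Creld2. Manf, a secreted factor of the stressed reticulum, was highest at clock time 2, at 75.3 and 77.3 CPM, and lowest at CT 62, at 37.0 CPM, with an amplitude of 0.40 ± 0.08. Herpud1, which takes part in the removal of misfolded proteins, stood apart with a peak at CT 14.5 ± 0.44 h, a range of 189 to 428 CPM (median 256) and an amplitude of 0.55 ± 0.06. The count was 3 without the library of CT 26, in the 12 young libraries alone, with a linear trend and with clock times as a factor; Creld2 lost its call without CT 50 (adjusted p = 0.0580) and Xbp1 without CT 26, 58 or 62 (highest 0.0665).

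Of 26 genes of sterol and fatty acid synthesis 5 were rhythmic, all with a day peak, at 2 separate times (median amplitude of the 26, 0.20). Sqle, an enzyme of cholesterol synthesis at a mean of 1.30 CPM, and the regulator Srebf2 peaked at CT 1.88 and 2.003, with amplitudes of 0.66 ± 0.17 and 0.22 ± 0.04. Srebf2 ran from 26.8 CPM at CT 38 to 41.4 CPM at CT 22 (median 33.4). Fdft1 and Me1 peaked at CT 11.8 and 11.9 with amplitudes of 0.21 and 0.22, and reads of Fdft1 cannot be told apart from those of Ctsb. The count was 8 without the library of CT 22, 10 without the filter, 3 in the 12 young libraries alone and 2 with clock times as a factor. Of 28 immediate early genes 7 were rhythmic with peaks spread over the day (median amplitude of the 28, 0.28), from Fosb at CT 0.49 to Gadd45g at CT 19.4; the count was 4 without the library of CT 30, in which Nr4a1 stood out, 17 without the filter and 2 with clock times as a factor.

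Of 27 genes of adrenergic and natriuretic signalling 9 were rhythmic, 1 with a peak at CT 0 to 6, 5 at CT 6 to 12 and 3 by night (median amplitude of the 27, 0.17). Adrb1, the beta-1 adrenergic receptor, was between 20.5 and 32.9 CPM in the day and between 16.3 and 21.9 CPM in the night, so that the ranges overlapped, with a peak at CT 7.31 and an amplitude of 0.32 ± 0.06. Pde3a, a phosphodiesterase that breaks down cyclic AMP in the heart, ran from 67.7 to 154 CPM (median 92.3; peak at CT 8.04, amplitude 0.37 ± 0.10). The alpha-1 receptor gene Adra1a and the muscarinic receptor gene Chrm2 peaked at CT 9.69 and 10.04 with amplitudes of 0.45 and 0.36. Npr1, a receptor of natriuretic peptides, peaked at CT 21.2, near its ligand Nppb. The call of Npr1 was lost in the 12 young libraries alone (edgeR adjusted p = 0.0522) and with a linear trend (0.0668). That of Nppb was lost with clock times as a factor (0.290). The call of Adrb1 was lost without CT 54 (adjusted p = 0.0660), and 4 of the 27 passed without CT 58 and with a linear trend.

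Of 46 genes of ion channels and calcium handling 7 were rhythmic, all with a day peak (median amplitude of the 46, 0.22). Kcnh2, which codes for the channel of the rapid delayed rectifier current, ran from 71.3 to 140 CPM (median 92.2; amplitude 0.43 ± 0.07, peak at CT 10.8), and Kcnd2, a channel of the transient outward current, from 13.8 to 31.2 CPM (median 20.3; 0.44 ± 0.08, peak at CT 9.31). Klf15, the factor known to control rhythmic repolarisation through a subunit of that current, ran from 32.4 CPM at CT 26 to 83.8 CPM at CT 62 (median 48.5), with an amplitude of 0.56 ± 0.10 and a peak at CT 11.2. The sodium-calcium exchanger gene Slc8a1 peaked at CT 8.57. Gja1, which codes for the gap junction protein connexin 43, was the exception with a peak at CT 2.84, between 331 and 608 CPM. The count was 3 without the library of CT 58, 17 without CT 22, 24 without the filter, 14 in DESeq2 and 4 with clock times as a factor; Kcnd2 lost its call without CT 58 (adjusted p = 0.0540) and Gja1 without CT 62 (0.0503).

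Of 39 genes of glucose uptake, glycolysis and glycogen 10 were rhythmic, and all 10 peaked between CT 9.7 and 13.8 (median amplitude of the 39, 0.15). Pfkfb3 and Pfkfb1, which set the level of the activator of glycolysis fructose 2,6-bisphosphate, had the largest amplitudes, 0.56 ± 0.13 and 0.61 ± 0.07, with peaks at CT 9.90 and 12.5. Pfkfb1 ran from 17.8 CPM at CT 50 to 45.1 CPM at CT 58 (median 27.5). Pygb, a glycogen phosphorylase, ran from 815 to 1280 CPM, with a peak at CT 11.9 and an amplitude of 0.26 ± 0.06, and Slc2a4, the insulin-responsive glucose transporter GLUT4, peaked last, at CT 13.8, with 0.14 ± 0.02. Without the library of CT 26, 4 of the 39 passed, as with clock times as a factor, and 3 passed with a linear trend and 5 in the 12 young libraries alone. Pdp1, a phosphatase that activates pyruvate dehydrogenase, lost its call without CT 58 (adjusted p = 0.117).

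Of 41 genes of fatty acid uptake and oxidation 3 were rhythmic, Cpt1a, Acsl1 and Hadha, with peaks at CT 9.77, 10.5 and 12.1 (median amplitude of the 41, 0.12). Cpt1a, the gate to oxidation in mitochondria, was between 41.0 and 52.2 CPM in 9 libraries, at 63.0 CPM at CT 34, 69.2 at CT 54 and 83.8 at CT 58. Without CT 58 none of the 41 passed (adjusted p of Cpt1a 0.162, Acsl1 0.169), nor did any with a linear trend, while 6 passed without CT 22, 10 in DESeq2, 11 without the filter and 1 in the 12 young libraries alone. Of 19 triglyceride genes 3 were rhythmic: Gpam at CT 10.9, and Dgat2 and Plin4 at CT 14.7. Dgat2, the enzyme of the last step of triglyceride synthesis, ran from 432 CPM at CT 30 to 734 CPM at CT 62 (median 572; amplitude 0.39 ± 0.03), and Plin4, which shares exons with Hdgfl2 on the opposite strand, lost its call without CT 26, 50 or 62 (highest adjusted p = 0.0974). Of 75 genes of oxidative phosphorylation only Ndufs1 was rhythmic (amplitude 0.16 ± 0.04, peak at CT 11.4), and not without CT 26, 58 or 62 (highest adjusted p = 0.0716); 4 of the 75 passed without CT 22, 2 in DESeq2, 43 without the filter, and none in the 12 young libraries alone, with a linear trend or with clock times as a factor.

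Of 33 sarcomere genes tested 4 were rhythmic (12.1%, near the 11.1% of all genes; median amplitude of the 33, 0.13; 13 without the filter). Mylk3, Lmod2 and Tcap peaked at CT 11.2 to 11.5. Tcap, the cap protein of titin, ran from 851 CPM at CT 22 to 2549 CPM at CT 34 (amplitude 0.58 ± 0.10), and Lmod2, which sets the length of thin filaments, from 544 to 1070 CPM (0.38 ± 0.08). Ankrd23, at a mean of 1.99 CPM, peaked at CT 23.1 and lost its call without CT 22, 34, 46, 58 or 62 (highest adjusted p = 0.106). Of 32 genes of autophagy and atrophy 5 were rhythmic (median amplitude of the 32, 0.14), with Fbxo32, the ubiquitin ligase atrogin-1, at CT 10.4 (0.47 ± 0.12) and Sqstm1, an autophagy receptor, at CT 14.7 (0.17 ± 0.03). Ulk1, the kinase that starts autophagy, lost its call without CT 58 (adjusted p = 0.106), and the count of the list was 3 without that library, 11 without CT 22, 10 without the filter and 2 with a linear trend or clock times as a factor.

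Of 12 genes of circadian and cold-regulated RNA binding 6 were rhythmic, and 3 with clock times as a factor (median amplitude of the 12, 0.18). Cirbp and Rbm3, which are known to rise as body temperature falls, peaked at CT 9.10 and 10.2 with amplitudes of 0.39 ± 0.07 and 0.27 ± 0.06. Srsf5, a splicing factor, was between 120 and 164 CPM in the night and between 162 and 278 CPM in the day, with a peak at CT 6.86. Noct, which codes for nocturnin, peaked at CT 13.01 with 0.58 ± 0.10. Of the 10 clock kinases and ligases tested 2 were rhythmic: Usp2, a deubiquitinase, from 81.2 to 220 CPM with a peak at CT 12.3 and an amplitude of 0.67 ± 0.07, and Btrc, which lost its call without CT 22, 34 or 58 (highest adjusted p = 0.103); 1 of the 10 passed without the filter, in the 12 young libraries alone and with clock times as a factor.

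Of 27 targets of glucocorticoid and insulin signalling 12 were rhythmic, 3 with a peak at CT 6 to 12, 8 at CT 12 to 18 and 1 at CT 18 to 24, and the median amplitude of all 27 was 0.34. Leaving out single libraries gave from 11 (without CT 50) to 15 (without CT 22) of the 27. Fkbp5, a chaperone of the glucocorticoid receptor and one of its targets, was between 27.2 and 59.0 CPM in the night and between 15.4 and 26.9 CPM in the day (amplitude 0.79 ± 0.12, peak at CT 15.6 ± 0.56 h). Pik3ip1 and Pik3r1, both regulators of phosphoinositide 3-kinase, peaked at CT 12.2 and 13.2 with amplitudes of 0.48 ± 0.05 and 0.51 ± 0.08, and Pik3r1 ran from 86.0 to 216 CPM (median 126). Zbtb16 and Mt2, described above, are on this list, and Cdkn1a was its member with the latest peak, at CT 23.95.

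Of 35 genes of NAD and redox 7 were rhythmic, 2 by day and 5 by night (median amplitude of the 35, 0.14). Nampt, the rate-limiting enzyme of NAD salvage, ran from 184 CPM at CT 50 to 359 CPM at CT 62 (median 246; amplitude 0.30 ± 0.07, peak at CT 13.8), and Gclm, a subunit of the enzyme that starts glutathione synthesis, peaked at CT 12.5 with 0.32 ± 0.06. Hmox1, the inducible haem oxygenase, lost its call without CT 62 (adjusted p = 0.0560), and the count of the list was 11 without CT 22 and without the filter. Of 30 cell cycle genes 2 were rhythmic (1 in the 12 young libraries alone and with clock times as a factor), Ccne1 at CT 9.65 and Wee1, a kinase that holds back mitosis and a known clock target, at CT 14.7. Wee1 ran from 7.62 CPM at CT 50 to 28.2 CPM at CT 62 (median 17.3), with an amplitude of 0.79 ± 0.09.

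Of 32 heat shock genes tested 7 were rhythmic, and these 7 peaked between CT 12.3 and 22.3 (median amplitude of the 32, 0.13). Dnaja1, a co-chaperone of HSP70, was between 88.4 and 140 CPM in the night and between 72.3 and 90.5 CPM in the day, with a peak at CT 18.1 ± 0.85 h and an amplitude of 0.39 ± 0.09. Hspa1b, which codes for the inducible HSP70 itself, and Dnajb1 peaked at CT 17.3 with amplitudes of 0.77 and 0.32; Hspa1b has a near-identical copy, Hspa1a, and its counts are uncertain for that reason. Hspb1, a small heat shock protein, and Serpinh1, the collagen chaperone HSP47, peaked at CT 22.3 and 21.9. Dnajb4, at CT 12.6, lost its call without CT 26, 50 or 62 (highest adjusted p = 0.0613), and the count of the list was 4 without CT 26 and with clock times as a factor.

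None of 77 cytosolic ribosome genes passed (edgeR; 16 had an unadjusted p under 0.05), with a median amplitude of 0.19. None passed in DESeq2, 1 passed in the 12 young libraries alone, 2 without CT 22 and 50 without the filter on low counts. Of 37 ribosome biogenesis genes 4 passed (10.8%, near the share of all genes), 1 without CT 26, in the 12 young libraries alone or with a linear trend, and none with clock times as a factor: Rrs1 peaked at CT 13.9, and Polr1a, Ddx10 and Ncl each lost their call without at least 2 single libraries, with highest adjusted p of 0.164, 0.151 and 0.141. Of 36 proteasome genes 3 passed (8.33%), 1 without CT 26 or with a linear trend, and none in the 12 young libraries alone or with clock times as a factor, with peaks at CT 11.7 to 12.3; Psme4 lost its call without CT 26, 50, 58 or 62 (highest adjusted p = 0.141), and Psmc6 without any of 6 libraries (highest 0.167).

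Few genes were called for a difference between the means of day and night. The model holds 1 mean for day and 1 for night, so a rhythm within either counts as spread. Nr1d1 and Cry1, whose day and night values did not overlap, were not called. The low count therefore does not show that the means of other genes were alike. Comparing the 6 libraries of clock times 2, 6 and 10 with the 6 of 14, 18 and 22, edgeR's quasi-likelihood test called 9 genes lower by day (0.0696% of 12928 tested) and 1 higher by day (0.00774%) at an adjusted p under 0.05, with 908 genes at an unadjusted p under 0.05; DESeq2 called 48 lower and 26 higher. These use the same libraries as the rhythm test and are no separate evidence. The genes of these 2 counts, other than Gsta3 and Angptl7, were named after their values were seen. Fmo2, a flavin monooxygenase, read 43.99 to 69.99 CPM by day (median 62.1) and 84.04 to 144 CPM by night (median 131). Its values did not overlap, and it was lower by day with a log2 difference of -1.06 ± 0.16 (edgeR adjusted p = 0.019). Podn, a matrix proteoglycan, read 15.5 to 22.2 CPM by day and 26.5 to 36.4 CPM by night. Other genes lower by day were Gsta3, Angptl7, Fam161b, Chka, Gm4956 and Gm31105, and the gene higher by day was Gm12966. Of the 9 genes named here, Fam161b kept its call without each single library (highest adjusted p = 0.0087). The highest adjusted p of the other 8 ranged from 0.0630 for Gm12966 to 0.138 for Chka, most often without CT 42 or CT 38. Chka lost its call on omission of each of the 12 libraries. Omissions that ended a call numbered 9 each for Angptl7 and Gm31105, 8 for Gm4956 and 7 for Podn. They numbered 5 for Fmo2, 4 for Gsta3 and 2 for Gm12966. Without the filter Angptl7, Chka and Fmo2 were not called (edgeR adjusted p = 0.141, 0.0909 and 0.0808).

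Beside the 24 h cosine, no gene of 12928 had a 12 h component at an adjusted p under 0.05 (0.0% called) by edgeR's quasi-likelihood test, while 841 had an unadjusted p under 0.05. DESeq2 called 7, and edgeR called 6 without the library of CT 54 and 435 without a filter on low counts. With a library every 4 h, a 12 h cycle was sampled at only 3 phases.

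The rhythm of the young heart was set against those of young kidney and young skeletal muscle; both comparisons use the same 12 heart libraries. Against kidney 816 of 16066 genes (5.08%) differed in cosine and sine by edgeR's quasi-likelihood test, and against muscle 80 of 14490 (0.552%). Of 20 clock genes 9 differed from kidney and 4 of 19 tested from muscle. The count against kidney was 537 without the heart library of CT 58 and 1820 without that of CT 22, in which kidney tubule markers summed to 4.56 CPM; their part in it was not tested. Against kidney the activators of the heart ran late: Arntl peaked at CT 0.34 in heart and CT 22.2 in kidney (adjusted p = 0.0038), Clock at CT 1.66 and 21.7 (0.0010) and Npas2 at CT 1.12 and 23.1 (0.00050). The fitted amplitude of Npas2 was 1.17 ± 0.16 in heart and 2.44 ± 0.13 in kidney. Each tissue comparison tests cosine and sine together, so no adjusted p of it belongs to peak time or to amplitude alone.

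Other clock genes that differed from kidney had shallower or deeper fits, or other fitted peak times, gene by gene. Dbp had an amplitude of 2.08 ± 0.13 in heart and 2.73 ± 0.06 in kidney, with peaks at CT 10.9 and 9.58 (adjusted p = 0.00016). Cry1 had 0.61 ± 0.11 and 1.58 ± 0.09 (0.00052). In the other direction Hlf had 0.98 ± 0.09 in heart and 0.39 ± 0.06 in kidney (0.0013). Bhlhe40 peaked at CT 9.32 in heart and 13.8 in kidney (0.0087), and Tef at CT 12.5 and 10.6 (0.013).

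Outside the clock, the genes of smallest p against kidney were Ppard, Slc16a1, Rhobtb1 and Mid1ip1. Ppard, a nuclear receptor of fatty acids, had an amplitude of 0.08 ± 0.07 in heart, where it was between 23.9 and 35.6 CPM, and of 1.25 ± 0.09 in kidney (adjusted p = 2.4e-07); its rhythm test in heart gave an adjusted p of 0.672. Slc16a1, the lactate transporter MCT1, had 0.17 ± 0.06 in heart and 1.04 ± 0.08 in kidney (4.2e-07), and it did not pass the rhythm test in heart (0.154). Rhobtb1 and Mid1ip1 were rhythmic in heart with peaks at CT 13.6 and 13.3, and peaked at CT 20.6 and 21.7 in kidney (1.3e-06 and 4.6e-06). All the differences named here kept an adjusted p under 0.05 without each single heart library, in DESeq2 and with circadian time as a block.

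Against skeletal muscle, the other striated muscle, the REV-ERB genes stood among the clock genes that differed. Nr1d1 peaked at CT 7.64 in heart and 5.28 in muscle, with amplitudes of 1.61 ± 0.08 and 1.36 ± 0.10 (adjusted p = 0.00046). Nr1d2 had amplitudes of 1.06 ± 0.07 and 0.48 ± 0.05 (0.0016), and Tef 0.82 ± 0.06 and 0.31 ± 0.05 (0.0046). Slc25a30, a mitochondrial carrier, was flat in heart, between 9.86 and 13.6 CPM (amplitude 0.07 ± 0.07, rhythm adjusted p = 0.540), and had an amplitude of 1.36 ± 0.10 in muscle (7.6e-06). Arrdc3 peaked at CT 10.02 in heart and 17.0 in muscle (0.00031), Lonrf1 at CT 14.7 and 20.04 (0.00034), and Nrip1, a corepressor of nuclear receptors, had amplitudes of 0.21 ± 0.08 and 0.94 ± 0.08 (0.00034). The rhythm of Arrdc3 in heart was itself lost without CT 58 (adjusted p = 0.0579). For 15 clock genes the difference from muscle did not pass, with adjusted p from 0.0632 for Hlf to 0.844 for Per1, which does not show that their rhythms are alike.

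**Figure D5:**
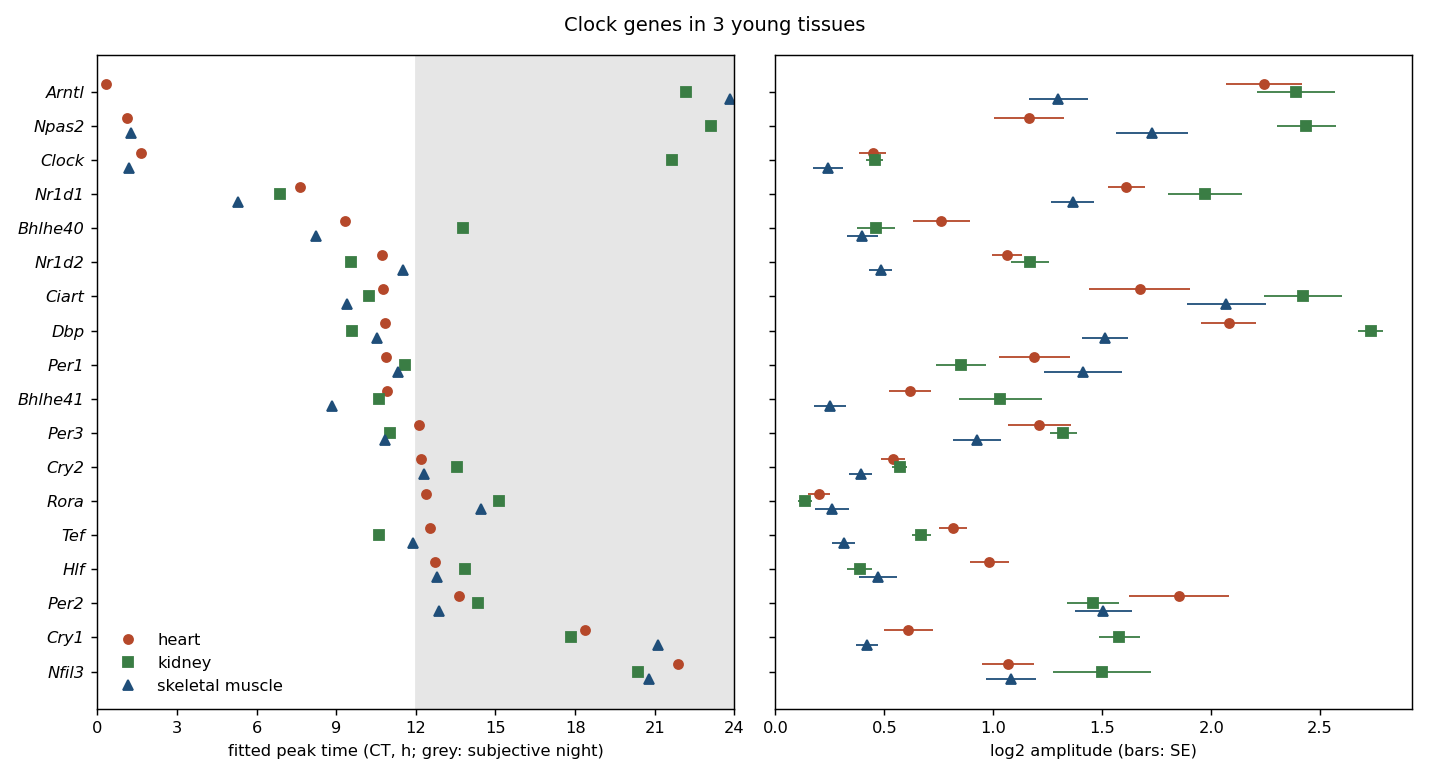
Fitted peak time (left, CT in hours, subjective night in grey) and log2 amplitude with its SE (right) of the rhythmic clock genes named above in young heart, kidney and skeletal muscle. Arntl, Npas2 and Clock peak at CT 0.34 to 1.66 in heart and at CT 21.7 to 23.1 in kidney, and Nr1d2 has an amplitude of 1.06 in heart, 1.17 in kidney and 0.48 in muscle.

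Peak times of the young heart were met again in hearts of other ages. Those libraries did not enter the peak times of the young, but they set part of the spread used to call the 1640 genes. Kidney and muscle libraries did not enter that spread, so the shares of hearts and of other tissues are not on equal terms. Of the 1640 genes rhythmic in young heart, 1207 (73.6%) had a fitted peak within 3 h in aged heart and 1279 (78.0%) in old heart, against 42.03% and 50.1% of all genes tested. In kidney and muscle of young mice the shares were 43.5% and 54.2%, against 29.8% and 38.5% of all tested. Of the 20 clock genes, 20 lay within 3 h in aged heart, 19 in old heart, 16 in young kidney and 20 in young muscle. These shares are a description with no test. The young cosine and sine chose the genes, with a spread shared over all heart libraries. For most of these genes the amplitude was lower at the other ages (1443 of 1640 in aged and 1478 in old heart). This cannot be told apart from an effect of how the genes were chosen. Of all 14805 genes tested, 9469 had a lower amplitude in aged and 7973 in old heart. Of the 20 clock genes, 15 were lower in aged and 18 in old heart. A change with age was not tested.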

How the data were processed

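RNA of young, aged and old heart, young kidney and young skeletal muscle was measured by poly(A) RNA sequencing after Trizol extraction, per the labels' protocols, and 1 library holds 2 pooled samples. The authors deposited raw counts per gene (HISAT2, HTSeq and GRCm38/mm10, per the submitters' processing notes; the notes name no versions and no strand setting). Their CPM table was not used, and all 216 columns of the count table matched a sample. Here CPM is the count divided by the library total.

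Genes passed edgeR's filterByExpr (minimum count 10) and were fitted with TMM factors and edgeR 4.0.16 in R 4.3.3 (robust quasi-likelihood; Benjamini-Hochberg adjusted p under 0.05). The rhythm model held the 36 heart libraries with a mean, cosine and sine of 24 h for each age. Amplitude and peak came from least squares on log2 CPM (prior count 2) of the 12 young libraries, with 9 residual degrees of freedom. Day against night and the 12 h term used these 12 libraries, and each tissue comparison 24. The labels do not say that the pools are independent, so p-values measure only the spread between these libraries. No 2 of the 12 libraries agreed within counting noise (chi-square over degrees of freedom at least 3.98 in 66 pairs). On simulated counts the rhythm test recovered 98.5% of 200 genes with an amplitude of 0.8, and 1.99% of its calls were false. Those 200 were drawn from genes above a minimum count, and the median amplitude of the 1640 rhythmic genes was only 0.30. The simulation also held no deviant libraries, so these rates do not describe the 1640 calls.

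Tissue, genes and lists were chosen with earlier results of these data known. Named were all clock genes, the 6 largest amplitudes per window of 6 h by peak time (at least 5 CPM), up to 4 members per list by smallest p, and the 5 smallest p per tissue comparison (at least 5 CPM in both); a few genes that this rule or a count would name are not reported here. Alternatives were median-of-ratios factors, no filter, DESeq2 1.42.0, the young libraries alone, a linear trend, the 6 clock times as a factor, a prior count of 0.5, an adjusted p under 0.01, a circadian-time block and leaving out each library; leaving out both CT 22 and CT 58 was added after seeing the data. Gene locations are from GENCODE M21 and promoters from RefSeq.

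The circadian times are shared between tissues, but the labels do not say that the tissues came from the same mice. Residuals of heart and kidney libraries of the same time had correlations of -0.20 to 0.32 (3 of 12 over 0.1), and those of heart and muscle -0.04 to 0.38 (8 of 12). The medians were 0.052 for kidney and 0.13 for muscle, against -0.0079 and -0.0098 between different times. Of the 12 heart libraries 3 correlated best with the kidney library of their own time, and 4 with that of muscle. The main comparisons did not treat the times as pairs, and a shared effect of time was not tested. With time as a block the counts were 490 against kidney and 146 against muscle, where the main model gave 816 and 80.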

Additional observations from a re-analysis of the deposited data

Results flagged for a closer look

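In 4 of 26 groups of 6 libraries examined a marker sum stood far from the other 5 by Dixon's test at the 95% level, and chance alone flags some groups at that level. Macrophage markers summed to 376 CPM at CT 30, the highest of the day libraries, and to 183 CPM at CT 46, the lowest of the night libraries. Adipocyte markers summed to 4.23 CPM at CT 26, the highest by day, and kidney tubule markers to 4.56 CPM at CT 22, the highest by night.

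The rhythm of young heart differed from that of young kidney for 12 genes named, by edgeR's quasi-likelihood test of the difference itself. The adjusted p was 2.4e-07 for Ppard, 4.2e-07 for Slc16a1, 1.3e-06 for Rhobtb1 and 4.6e-06 for Mid1ip1. Among the clock genes it was 0.00016 for Dbp, 0.00050 for Npas2, 0.00052 for Cry1, 0.0010 for Clock, 0.0013 for Hlf, 0.0038 for Arntl, 0.0087 for Bhlhe40 and 0.013 for Tef.

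Against young skeletal muscle 7 named genes differed by the same test. The adjusted p was 7.6e-06 for Slc25a30, 0.00031 for Arrdc3, 0.00034 for Lonrf1 and 0.00034 for Nrip1. It was 0.00046 for Nr1d1, 0.0016 for Nr1d2 and 0.0046 for Tef. Both sets of comparisons share the 12 heart libraries.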

How the results depend on the processing

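Single libraries, the model and the filter set how many genes were called rhythmic, while no single omission ended the call of any of the 19 rhythmic clock genes. Against 1640 rhythmic genes (954 day, 686 night), the 12 young libraries alone gave 929 (506 and 423), a linear trend 950 (502 and 448), the 6 clock times as a factor 594 (303 and 291), an adjusted p under 0.01 gave 623 (325 and 298), and omission of both CT 22 and CT 58 gave 1051 (571 by day). Without the filter there were 2666 (1257 by night), of which 1312 were among the 1640. Leaving out 1 library gave 947 to 2344 in all, 472 to 1412 by day and 475 to 932 by night. Median-of-ratios factors gave 1666 and DESeq2 2029. For day against night, genes higher by day numbered 3 without the filter, 26 in DESeq2, 4 without CT 22 and CT 58 and 0 to 5 under omission of 1 library, and genes lower by day 48 in DESeq2 and 2 to 9. For the 12 h term the counts were 435 without the filter, 7 in DESeq2 and 0 to 6. Against kidney there were 2142 without the filter, 1416 in DESeq2 and 537 to 1820 under omission, and against muscle 659, 257 and 56 to 112. With circadian time as a replicate block the counts were 490 for kidney and 146 for muscle, and none of the 12 kidney and 7 muscle differences named was lost there. The cause of these shifts was not tested. Of 109 named rhythms 26 were lost under at least 1 omission, 18 with a linear trend and 16 without both CT 22 and CT 58. Without the filter 6 of the 109 were lost, and 0 with median-of-ratios factors. Of the 106 tested in the 12 young libraries alone 17 were lost, and 27 of 106 with the 6 clock times as a factor. DESeq2 lost 0 of 108. A prior count of 0.5 moved 1 of 114 named amplitudes by over 1 SE. The 9438150 to 13766042 counts per library limit what can be said of genes of low count.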
